A study of Mus musculus with 10 samples.

Results

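The genes described here are interferon-stimulated genes, measured in Myc-driven mouse B-cell lymphomas before and after a DNA-damaging drug. A list of 39 such genes was matched by exact symbol to the probe sets of the array, and 37 of the 39 had a probe set with 1 symbol, out of 18193 genes with such a probe set. Oas1g and Ifi44 were not matched and are not analysed here. Where a gene had several probe sets, the brightest was used; 14 of the 37 had several, and probe sets of 1 gene that differ in sign are named with their values. All 37 passed the filter on low signals, as did 11472 genes in all.

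Total RNA came from primary lymphomas of Emu-myc;Suv39h1-/- mice, in which an immunoglobulin heavy-chain enhancer drives c-Myc in the B-cell lineage and the histone H3 lysine 9 methyltransferase Suv39h1 is missing. All cells carried a retroviral Bcl2 (MSCVpuro), which protects from apoptosis, had been selected with Puromycin, and grew on gamma-irradiated NIH 3T3 mouse fibroblasts as feeder. Each of 5 lymphomas (lymphoma_5783, lymphoma_7890, lymphoma_9250, lymphoma_1032 and lymphoma_4936) gave 1 array of untreated cells and 1 array of cells exposed in vitro to 0.05 µg/ml Adriamycin (ADR, doxorubicin) for 5 days. Both groups lack Suv39h1, so the arrays compare the drug with no drug and do not compare genotypes. The labels give no age of the mice, and Suv39h1 itself is not analysed here. Feeder RNA of the same species would hybridise to the same probes.

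Interferons are secreted proteins that bind receptors on the cell surface and activate kinases, which for type I interferons are Jak1 and Tyk2. For type I interferons the signal reaches the nucleus as a complex that includes Stat2 and Irf9, which binds a DNA element (the interferon-stimulated response element) near the genes it switches on. The products of these genes sense foreign nucleic acids, degrade or edit viral RNA, block viral entry and release, and damp the pathway itself. In bulk RNA of a tumour culture, fewer cells of a type and less RNA per cell cannot be told apart.

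The core of the response element, GAAA, any 2 bases and GAAA again (TTTC, any 2 bases and TTTC on the opposite strand), was looked for in RefSeq promoter windows of 300 bases (250 before to 50 after a start; build GRCm38.p6). Windows were given for 27 of the 37 measured genes, and 12 of these 27 genes (44.4%) held the core, against 3.64% of 9325 tested genes with a window and 3.99% of all 27025 genes with one. The share was 6 of 15 among members that differed between lymphomas in the test below and 6 of 12 among the others. The stretches below are from some of the genes with an element before the start whose signals on every array are given later. Stat2 (222 bases before the start) and Bst2 (130 and 124 bases) also held the core and are not shown. Capitals mark each core within a stretch; the cores of Oas1a overlap.
Ifit1 (chr19:34640779-34640838, plus strand): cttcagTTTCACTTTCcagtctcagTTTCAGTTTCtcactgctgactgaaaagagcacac
Ifit3 (chr19:34583382-34583441, plus strand): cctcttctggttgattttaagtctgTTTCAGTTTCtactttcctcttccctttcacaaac
Oas1a (chr5:120907526-120907585, minus strand): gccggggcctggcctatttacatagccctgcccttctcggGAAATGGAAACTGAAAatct
Oas3 (chr5:120777700-120777759, minus strand): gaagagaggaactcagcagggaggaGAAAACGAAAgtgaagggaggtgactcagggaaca
Gbp2 (chr3:142620579-142620638, plus strand): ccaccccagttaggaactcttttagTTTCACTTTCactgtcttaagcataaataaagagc
Cores began 104 and 85 bases before the start in Ifit1, 156 (outside the stretch shown) and 122 in Ifit3, 20 and 14 in Oas1a, 75 in Oas3 and 59 in Gbp2. A match describes the letters of the window and is not evidence of binding, and a window without one says only that these letters are not in it.

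In untreated cells the 5 lymphomas held very different levels of these genes, and lymphoma_7890 and lymphoma_1032 were the high ones. Levels are log2 array signals, so that a difference of 1 is 2-fold. The median over the 37 genes was 8.09 in lymphoma_7890 and 7.84 in lymphoma_1032, and 6.08, 6.10 and 5.82 in lymphoma_5783, lymphoma_9250 and lymphoma_4936. Of the 37 genes, 25 were highest in lymphoma_7890 and 11 in lymphoma_1032, and Trim25, a ubiquitin ligase that acts on the RNA sensor RIG-I, was highest in lymphoma_4936. Over all 11472 tested genes, 18.0% were highest in lymphoma_7890 and 28.5% in lymphoma_1032. The median distance between the highest and the lowest untreated lymphoma was 2.60 for the interferon-stimulated genes and 0.86 over all genes tested. It was over 2 for 23 of the 37 genes (62.2%) and for 10.7% of all genes. With ADR the median distance was 2.27, and 22 of 37 members (59.5%) had a narrower range than untreated, beside 48.4% of all genes.

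**Figure D1:**
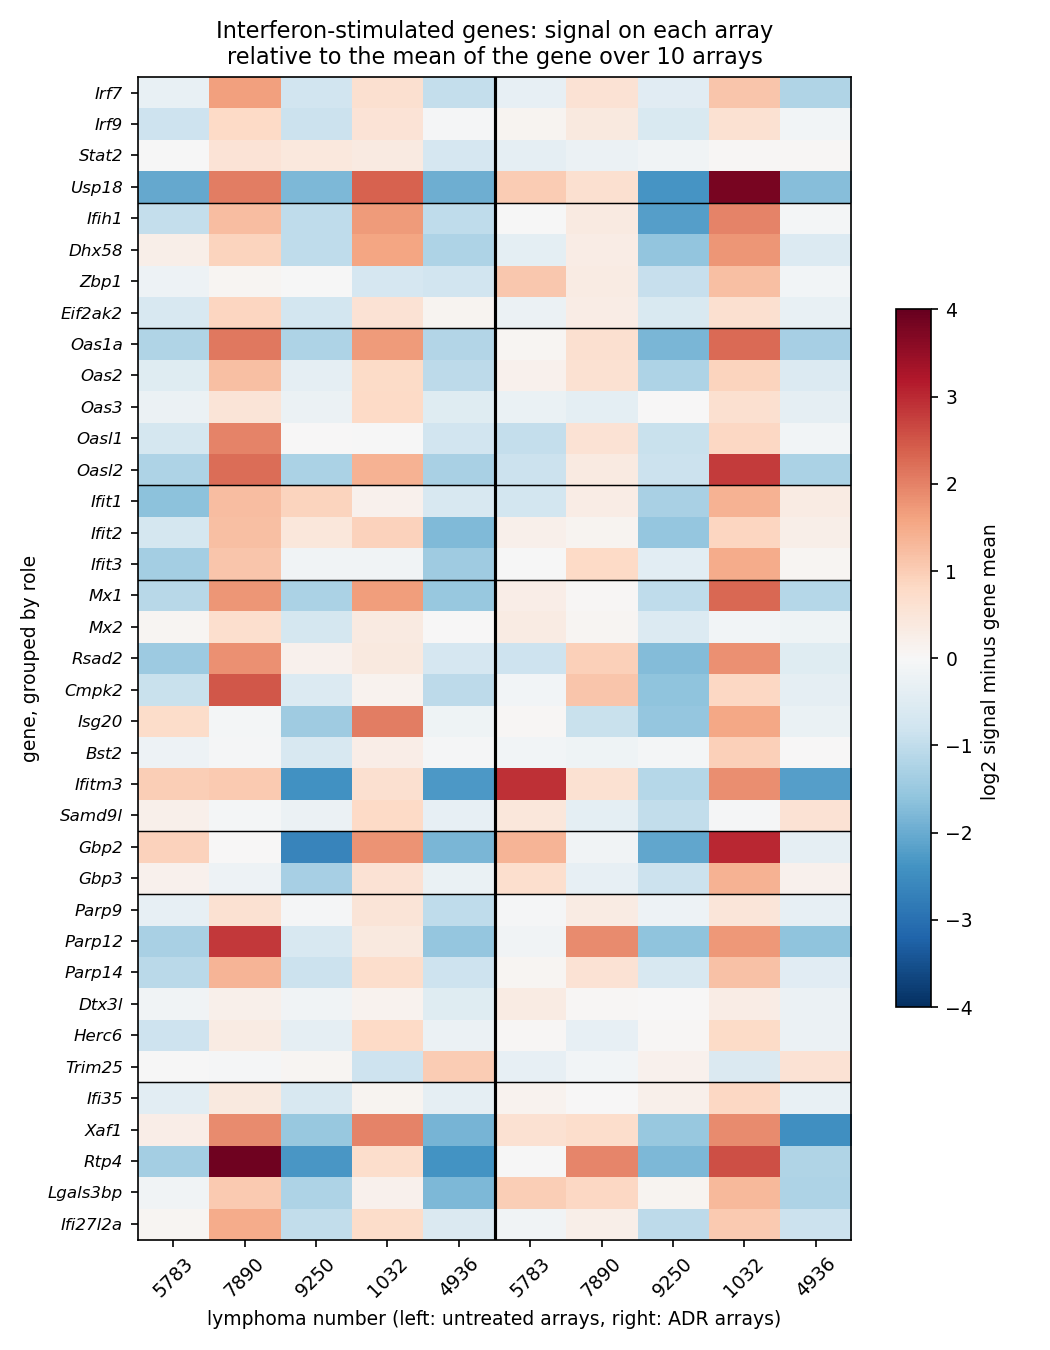
Log2 signal of 37 interferon-stimulated genes (rows, grouped by role) on the 10 arrays (columns; untreated left, ADR right), as the difference from the mean of the gene over the 10 arrays. The highest untreated value lies in lymphoma_7890 or lymphoma_1032 for 36 of the 37 genes, and with ADR 30 of 37 were highest in lymphoma_1032.

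The differences between lymphomas were tested with an F-test of limma across all 11472 genes, with the average ADR effect in the model. Of the 37 genes, 23 passed (adjusted p under 0.05), against 3089 genes or 26.9% of all genes tested. The 2 arrays of a lymphoma are 1 untreated and 1 ADR culture of the same tumour, with no replicate culture of either. This test therefore sets differences between tumours against a spread that mixes differing drug responses of the tumours with noise between cultures. Without lymphoma_1032, 11 members and 1179 genes passed, and without lymphoma_4936, 15 members and 2221 genes. The members that passed whichever lymphoma was left out were Irf7, Dhx58, Isg20, Ifitm3, Gbp2, Gbp3, Xaf1, Rtp4 and Ifi27l2a. The share of all genes that did so was not counted, so this list has no background to compare with.

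Markers of macrophages, which also respond to interferon, were highest in the same lymphomas. The mean log2 signal of 15 tested markers in untreated cells was 9.67 in lymphoma_7890, 9.02 in lymphoma_1032, 7.45 in lymphoma_5783, 6.15 in lymphoma_9250 and 5.72 in lymphoma_4936. In the limma F-test 14 of the 15 differed between lymphomas, beside 26.9% of all genes tested. Of the 15, 10 were highest in lymphoma_7890 and 5 in lymphoma_1032. Over all 21 markers with a probe set, the list mean lay between 4.91 and 8.27 in untreated and between 5.14 and 8.28 in ADR cells, and the log2 of their summed signals between 11.40 and 15.25 and between 11.31 and 16.06. Mertk and Cd163 stayed below the median of the whole table (4.43) on all arrays, while Lyz2, lysozyme of macrophages, had untreated signals of 13.19 in lymphoma_7890, 12.56 in lymphoma_1032 and 6.81 in lymphoma_4936. Not all markers had this order: Mrc1 and C1qa were highest untreated in lymphoma_5783, at 7.64 and 6.82, and C1qb had a signal of 2.72 in lymphoma_1032. The part of macrophage RNA in the levels of the interferon-stimulated genes was not tested, and macrophage RNA and the tumour cells' own RNA cannot be told apart in these samples.

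B-cell markers had list means from 7.33 to 8.72 over 16 markers in untreated and from 6.96 to 9.21 in ADR cells, lowest in lymphoma_1032 in both groups. The antigen-receptor chain genes Cd79a and Cd79b had signals from 7.98 to 10.78 and from 9.93 to 11.99. Ms4a1, which encodes CD20, was lowest in lymphoma_1032, at 5.09 before and 4.79 after ADR, and ranged from 7.87 to 11.15 in the others, Pax5 lay between 4.23 and 5.65, and Cr2 was below the table median on all arrays. Fibroblast markers, which the feeder could supply, had list means from 4.90 to 6.17 over 24 markers in untreated and from 5.02 to 6.77 in ADR cells, highest in lymphoma_5783 in both. Plasmacytoid dendritic cell markers (11 with a probe set; Ccr9 below the table median on all arrays) had list means from 6.12 to 6.72 in untreated cells, highest in lymphoma_5783, and from 5.79 to 6.61 in ADR cells. T-cell markers had list means from 4.54 to 5.42 over 13 markers in untreated cells and from 4.54 to 5.21 in ADR cells. Those of NK cells lay from 3.24 to 3.73 and from 3.30 to 3.90 over 9 markers, and those of neutrophils from 4.05 to 5.81 and from 4.11 to 6.63 over 10 markers, highest in lymphoma_1032 in both groups. Below the table median on all arrays were 5 neutrophil, 6 NK-cell, 3 T-cell and 2 fibroblast markers.

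With ADR, the interferon-stimulated genes were about evenly split between higher and lower on average. No member passed the threshold in the paired limma fit: 0 of 37 rose and 0 fell, and the smallest adjusted p among them was 0.565. Over all 11472 genes 0 rose and 0 fell (0.0% each), with a smallest adjusted p of 0.551. At an unadjusted p under 0.05 there were 5 members, Lgals3bp, Gbp2, Gbp3 and Ifitm3 higher and Isg20 lower, beside 973 genes or 8.48% of all tested. The median change over the members was 0.02 and over all genes -0.02, with 19 members higher and 18 lower on average. On the probe sets used, Isg20 alone of the 37 members kept 1 sign across the 5 lymphomas, as did 9.49% of all genes. The median SD of the change over the 5 lymphomas was 0.66 for the members and 0.33 over all genes.

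Behind this average, single lymphomas had large differences of opposite sign. In lymphoma_7890, 36 of 37 members were lower with ADR, with a median change of -0.78, while 51.5% of all genes were lower there and their median change was -0.01. In lymphoma_5783, 29 of 37 were higher, with a median of 0.55 against 0.04 over all genes. In lymphoma_1032, 28 of 37 were higher, with a median of 0.48 against -0.17. In lymphoma_4936, 27 of 37 were higher, with a median of 0.26 against 0.06. In lymphoma_9250, 18 were higher and 19 lower, with a median of -0.02, the same as over all genes. The exception in lymphoma_7890 was Zbp1, at 0.24 on the probe set used, while another probe set of the gene changed by -0.62 there. Each lymphoma gave 1 array per condition, so none of these single-lymphoma changes has a replicate, and each contains the error of its untreated array.

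**Figure D2:**
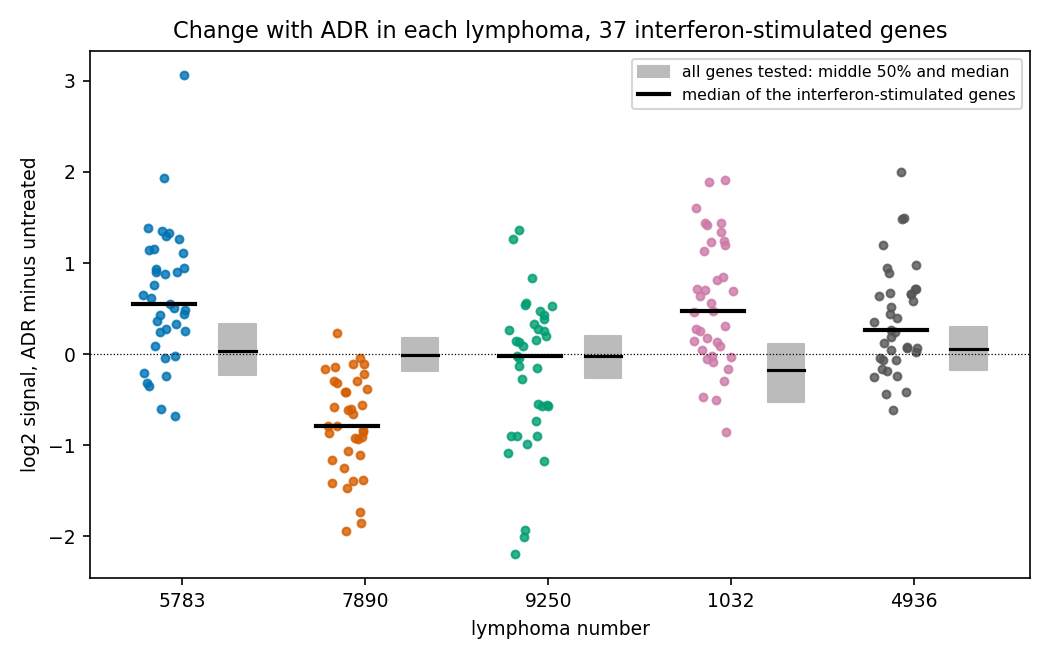
Change in log2 signal (ADR minus untreated) of each of 37 interferon-stimulated genes (points) in each of the 5 lymphomas, with the median (long bar) beside the middle 50% and median of all 11472 tested genes (grey box). The points of lymphoma_7890 lie below 0 for 36 of 37 genes, and the medians of lymphoma_5783 (0.55), lymphoma_1032 (0.48) and lymphoma_4936 (0.26) lie above 0.

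Changes of 2-fold or more show the same split. In lymphoma_7890, 11 members were lower and 0 higher by at least that much, where 0.488% of all genes were lower and 1.14% higher. In lymphoma_5783, 10 were higher and 0 lower, against 4.6% and 3.02% of all genes, and in lymphoma_1032, 11 higher and 0 lower, against 1.61% and 7.76%. Lymphoma_4936 had 4 members higher and 0 lower, against 2.19% and 0.994%. Lymphoma_9250 had 2 higher and 5 lower, against 1.06% and 2.32%. The ADR array of lymphoma_1032 had the lowest array median, 4.15, where the remaining 9 arrays had medians between 4.43 and 4.50. With every array centred on its own median, 33 of 37 members were higher in that lymphoma, with a median of 0.77 against 0.12 over all genes, a shift of all genes from -0.17. The count in lymphoma_7890 stayed at 36 lower with centring and with another quantile normalization, and was 37 with the mean of all probe sets of each gene.

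The mean of the macrophage markers was higher with ADR in the lymphomas where most interferon-stimulated genes were higher, though not every marker was. The 15 tested markers changed on average by 1.55 in lymphoma_5783, 1.20 in lymphoma_1032, 0.34 in lymphoma_4936, 0.21 in lymphoma_7890 and -0.20 in lymphoma_9250. All 21 markers with a probe set changed on average by 0.67, 0.77, 0.23, 0.01 and -0.12 in these lymphomas. In lymphoma_5783 Cd14 changed by -1.30, and Mrc1, C1qa, C1qb and C1qc, which did not pass the filter and are not among the 15, by -2.94, -2.91, -2.40 and -1.30. Fibroblast markers (16 tested) changed by 0.76 in lymphoma_5783 and 0.57 in lymphoma_1032, and by 0.14, -0.10 and -0.13 in lymphoma_4936, lymphoma_7890 and lymphoma_9250. Over all 24 with a probe set, the mean changes were 0.60, 0.46, 0.12, -0.08 and -0.04 in this order. In lymphoma_5783, 1 of the 16 was lower. Among the fibroblast markers that did not pass the filter, Col3a1 and Postn changed by -1.83 and -1.67 there. Lum and Fap were also lower in that lymphoma, and Thy1, Pdgfra, Pdgfrb and Ccn2 were higher. Neutrophil markers changed by 1.82 in lymphoma_1032 and 0.80 in lymphoma_5783 over the 3 tested, and by 0.82 and 0.27 over all 10. Of these 10, 5 (S100a9, Mpo, Camp, Ngp and Cxcr2) stayed below the table median on all arrays. Among the tested ones, Lcn2 changed by -1.36 in lymphoma_5783, and Mmp8 and Mmp9 by 1.62 and 2.14. B-cell markers (14 tested) changed on average by 0.33 in lymphoma_5783, 0.43 in lymphoma_7890 and 0.57 in lymphoma_9250. The average was -0.44 in lymphoma_1032 and -0.47 in lymphoma_4936. In this order, 7, 3, 0, 12 and 11 of the 14 were lower, beside 46.3%, 51.5%, 52.9%, 65.6% and 43.6% of all genes. The median of the 14 in lymphoma_5783 was -0.0048, and Igll1 and Rag1 changed by 3.93 and 1.45 there. The part of these cell types in the higher values of lymphoma_5783 and lymphoma_1032 was not tested. Without both lymphomas the median change of the members was -0.21, with 0 members past the threshold. These lymphomas had the highest median changes of the members (0.55 and 0.48), so a lower value was built into the choice. It does not test the part of any cell type.

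**Figure D3:**
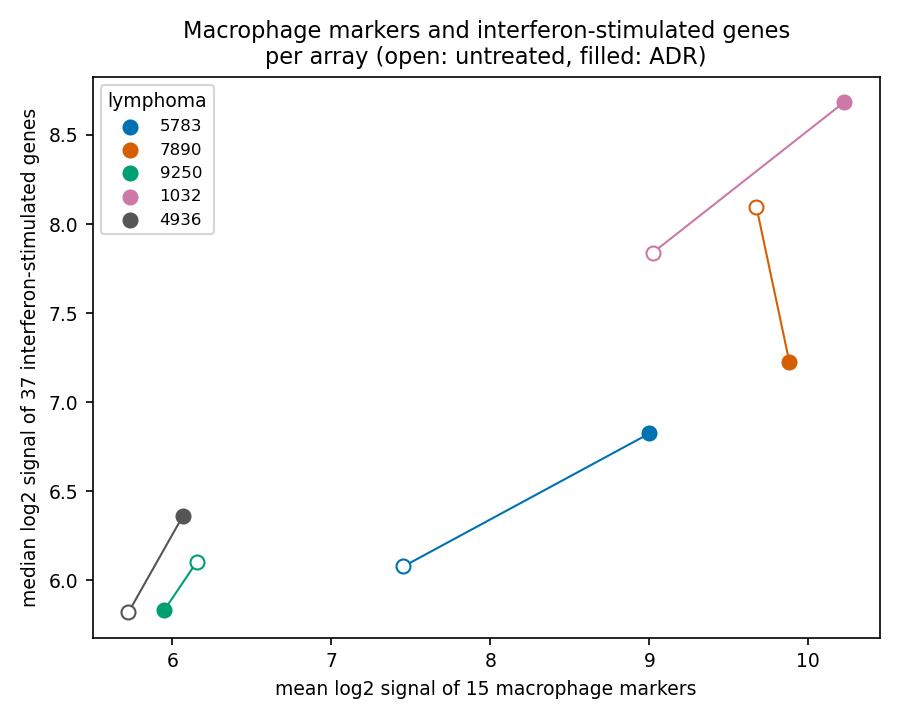
Median log2 signal of 37 interferon-stimulated genes against the mean log2 signal of 15 macrophage markers on each array (open circles untreated, filled circles ADR, a line joining the 2 arrays of a lymphoma). In lymphoma_1032, lymphoma_5783 and lymphoma_4936 both values are higher with ADR, and in lymphoma_7890 the macrophage mean goes from 9.67 to 9.88 while the median of the interferon-stimulated genes goes from 8.09 to 7.22.

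Among the regulators, none of the 4 genes passed for ADR and 3 differed between lymphomas. Values below are given in the order lymphoma_5783, lymphoma_7890, lymphoma_9250, lymphoma_1032 and lymphoma_4936. Irf7, the factor that amplifies type I interferon production, had log2 signals of 5.75, 7.68, 5.26, 6.69 and 5.08 in untreated cells and of 5.71, 6.61, 5.59, 7.16 and 4.84 with ADR. The high lymphomas were the same in both groups, which overlapped throughout, and the change was -0.11 ± 0.60 (SD, n = 5; adjusted p = 0.892 in limma). The F-test between lymphomas gave an adjusted p of 0.0129. Irf9, the DNA-binding subunit of the type I complex, had signals of 6.46, 8.11, 6.43, 7.84 and 7.24 untreated and of 7.41, 7.69, 6.69, 7.89 and 7.20 with ADR. Its largest difference was in lymphoma_5783, which moved from the low to the middle of the range, and the change was 0.16 ± 0.50 (adjusted p = 0.809 in limma; 0.0429 between lymphomas).

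Stat2, the transactivating subunit of the same complex, had signals of 6.02, 6.57, 6.43, 6.37 and 5.35 untreated and of 5.68, 5.79, 5.89, 6.08 and 6.06 with ADR. It was lower with ADR in every lymphoma but lymphoma_4936, which had the lowest untreated value, and the distance between lymphomas went from 1.22 to 0.40. Its change was -0.25 ± 0.57 (SD, n = 5; adjusted p = 0.727 in limma), the F-test gave an adjusted p of 0.576, and a second probe set of the gene had a mean change of 0.07. Usp18, the protease that removes Isg15 from proteins and blocks the type I receptor as negative feedback, had signals of 3.84, 7.93, 4.09, 8.25 and 3.93 untreated and of 6.90, 6.54, 3.52, 9.69 and 4.19 with ADR. In the 3 low lymphomas the untreated signal was below the table median (4.43), where a signal may be background, so the difference of 3.07 in lymphoma_5783 has no exact size. Usp18 changed by -1.39 in lymphoma_7890, and with ADR these lymphomas were close together. Oasl2, Ifit1, Mx1, Cmpk2, Parp12 and Rtp4 also had signals below that median on some arrays, with the same limit on their differences. The average change of 0.56 ± 1.75 (adjusted p = 0.774 in limma) rested on lymphoma_5783 and was -0.07 without it; the F-test between lymphomas gave an adjusted p of 0.0207.

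The nucleic acid sensors had changes from -0.18 to 0.63, and 3 of 4 differed between lymphomas. Ifih1, the RNA sensor MDA5, had signals of 5.89, 8.07, 5.82, 8.56 and 5.82 untreated and of 6.82, 7.21, 4.65, 8.84 and 6.77 with ADR. Lymphoma_1032 stayed highest, and lymphoma_9250 was lowest with ADR. The change was 0.02 ± 0.99 (SD, n = 5; adjusted p = 0.987 in limma), and the F-test gave an adjusted p of 0.0177. Zbp1, a sensor of Z-form nucleic acids that can start cell death, had a narrow untreated range, with signals of 6.08, 6.36, 6.27, 5.59 and 5.53, and a wider one with ADR, at 7.35, 6.60, 5.37, 7.48 and 6.16. It was higher in 4 of 5 lymphomas and lower in lymphoma_9250, with a change of 0.63 ± 1.06 (adjusted p = 0.629 in limma; 0.537 between lymphomas), and another probe set of the gene had a mean change of -0.24. Dhx58, a regulator of RNA sensing also called LGP2, changed by -0.18 ± 0.58, and the RNA-activated kinase gene Eif2ak2 (PKR) by -0.07 ± 0.41, with no call for ADR in either. Other probe sets of Eif2ak2 had mean changes of -0.20 and -0.67, and the last was lower in all 5 lymphomas.

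The 2'-5' oligoadenylate synthetases make the messenger that activates RNase L, which cuts RNA. Of the 5 measured genes of this family 3 differed between lymphomas, 0 passed for ADR, and all 5 were lower with ADR in lymphoma_7890, with a median change of -1.41. Oas1a, one of the genes with the element shown above, had signals of 6.25, 9.56, 6.21, 9.14 and 6.28 untreated and of 7.54, 8.09, 5.64, 9.70 and 6.11 with ADR. Untreated cells formed a high pair and a low trio of lymphomas, and with ADR lymphoma_5783 and lymphoma_7890 approached each other. The change was -0.07 ± 1.05 (SD, n = 5; adjusted p = 0.966 in limma), with an adjusted p of 0.0124 between lymphomas. Oas3 had lower signals, of 4.74, 5.51, 4.75, 5.79 and 4.50 untreated and of 4.72, 4.58, 5.00, 5.63 and 4.61 with ADR, and changed by -0.15 ± 0.46 (adjusted p = 0.813 in limma; 0.0868 between lymphomas). Among the others, the average change was -0.04 for Oas2, -0.21 for Oasl1 and 0.07 for Oasl2. Oasl2 changed by -1.85 in lymphoma_7890 and by 1.42 in lymphoma_1032.

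The 3 Ifit genes, whose proteins bind viral RNA and block its translation, had their lowest median change, -2.01, in lymphoma_9250. Ifit1 had signals of 3.22, 6.07, 5.75, 5.03 and 4.20 untreated and of 4.12, 5.15, 3.55, 6.26 and 5.17 with ADR. Lymphoma_9250 was among the high ones untreated and the lowest with ADR, a change of -2.19 there, and Ifit2 changed by -2.01 in the same lymphoma. The average change of Ifit1 was below 0.01 in size, with an SD of 1.49 (n = 5; adjusted p = 0.998 in limma; 0.276 between lymphomas). Ifit3 had signals of 5.03, 7.49, 6.25, 6.26 and 4.97 untreated and of 6.38, 7.19, 5.98, 7.87 and 6.46 with ADR. It was at least 1.35 higher in lymphoma_5783, lymphoma_1032 and lymphoma_4936, and changed by -0.30 in lymphoma_7890 and by -0.27 in lymphoma_9250. Its change of 0.78 ± 0.97 had a 95% interval from -0.01 to 1.56 (adjusted p = 0.577 in limma; 0.108 between lymphomas). None of the Ifit genes was called for either comparison.

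Among the antiviral effectors, Isg20 was the only member of all 37 with the same sign in every lymphoma on the probe sets used. Isg20, an exonuclease that degrades RNA, had signals of 8.13, 7.32, 5.96, 9.44 and 7.21 untreated and of 7.45, 6.49, 5.83, 8.93 and 7.14 with ADR. Lymphoma_1032 was highest and lymphoma_9250 lowest in both groups, the groups overlapped, and the change was between -0.83 in lymphoma_7890 and -0.07 in lymphoma_4936. Its change of -0.44 ± 0.33 (SD, n = 5) had a 95% interval from -0.78 to -0.10 and did not pass (adjusted p = 0.565 in limma), while the differences between lymphomas did (adjusted p = 0.00144). Ifitm3, a membrane protein that blocks the entry of viruses, had signals of 9.37, 9.43, 5.97, 9.04 and 6.10 untreated and of 11.30, 9.01, 7.24, 10.24 and 6.19 with ADR. The lymphomas formed a high trio with lymphoma_5783 in it and a low pair, and ADR cells were higher in all but lymphoma_7890. Its change was 0.81 ± 0.95 (adjusted p = 0.577 in limma, and 0.00495 in the F-test between lymphomas). The largest difference, 1.93, was in lymphoma_5783. The means of the macrophage and of the fibroblast markers were also higher there, though not every marker was. The part of these cells in this value was not tested.

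Other effectors gave the mixed picture of the whole set. Mx1, a dynamin-like GTPase against influenza viruses, changed by 0.19 ± 1.16, with -1.73 in lymphoma_7890 and 1.38 in lymphoma_5783. Mx2 changed by -0.17 ± 0.36. Rsad2 (viperin), which makes a chain-terminating nucleotide, and its genomic neighbour Cmpk2, a mitochondrial nucleotide kinase gene, changed on average by -0.11 and -0.06, and both were lower in lymphoma_7890 and lymphoma_9250 and higher in the others. Bst2 (tetherin), which holds budding viruses at the cell surface, had signals of 9.10, 9.24, 8.66, 9.56 and 9.24 untreated and of 9.18, 9.13, 9.23, 10.25 and 9.30 with ADR. Its values were high and close together except for lymphoma_1032 with ADR, and its change was 0.26 ± 0.35. Samd9l, a translation inhibitor, changed by -0.15 ± 0.73.

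**Figure D4:**
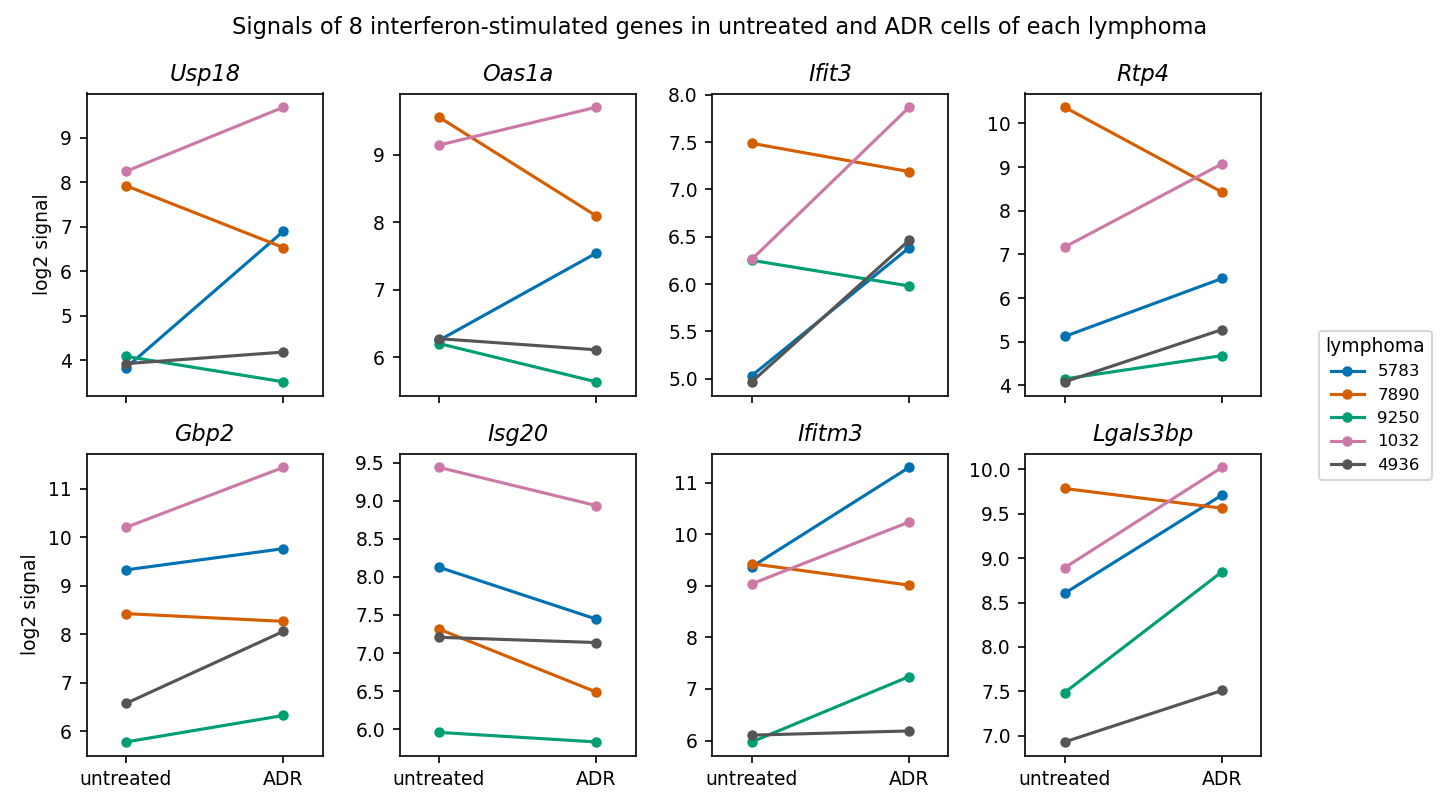
Log2 signals of 8 interferon-stimulated genes in untreated and ADR cells, with a line for each of the 5 lymphomas (1 array per point; the y axes differ between panels and do not start at 0). Usp18, Oas1a and Rtp4 go down in lymphoma_7890 and up in lymphoma_5783 and lymphoma_1032, Gbp2, Ifitm3 and Lgals3bp are higher with ADR in 4 of 5 lymphomas, and Isg20 is lower in all 5.

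Both guanylate-binding proteins, GTPases that attack the vacuoles of intracellular microbes and respond strongly to interferon gamma, were higher in 4 of 5 lymphomas on the probe sets used and differed between lymphomas. Gbp2 had signals of 9.33, 8.42, 5.78, 10.20 and 6.57 untreated and of 9.76, 8.26, 6.33, 11.44 and 8.06 with ADR. Unlike most of the set it was highest untreated in lymphoma_1032 and lymphoma_5783, with lymphoma_7890 in the middle, and its largest difference was 1.48 in lymphoma_4936. The change of 0.71 ± 0.66 (SD, n = 5) did not pass (adjusted p = 0.565 in limma), and the differences between lymphomas did (adjusted p = 0.00171). The probe set used for Gbp2 is of a type that can cross-hybridise, and a second one had a mean change of 0.42, with -0.68 in lymphoma_9250, so that it was higher in 3 of 5 lymphomas. Gbp3 changed by 0.43 ± 0.33, with a 95% interval from 0.08 to 0.77 and an adjusted p of 0.565 in limma.

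Of 6 genes of ADP-ribosylation and ubiquitin transfer, 4 differed between lymphomas and 0 passed for ADR. Parp12, a mono-ADP-ribosyltransferase, had signals of 4.69, 8.81, 5.36, 6.39 and 4.46 untreated and of 5.85, 7.90, 4.37, 7.73 and 4.39 with ADR. Lymphoma_7890 stood well above the others untreated and lymphoma_1032 came close to it with ADR; the change was 0.11 ± 1.11 (SD, n = 5; adjusted p = 0.947 in limma; 0.0124 between lymphomas). Dtx3l, a ubiquitin ligase that works with Parp9 and is also recruited to DNA damage, had even signals, of 8.37, 8.71, 8.37, 8.67 and 8.03 untreated and of 8.85, 8.57, 8.53, 8.82 and 8.27 with ADR. It was higher in 4 of 5 lymphomas by small steps, with a change of 0.18 ± 0.22 (adjusted p = 0.666 in limma; 0.184 between lymphomas). Parp9 changed by 0.09 ± 0.39, Parp14 by 0.28 ± 0.70, Herc6, the main Isg15 ligase of the mouse, by 0.13 ± 0.57, and Trim25 by -0.09 ± 0.28.

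The other 5 measured genes included the widest untreated range of all. Rtp4, a chaperone for receptors on their way to the cell surface, had signals of 5.12, 10.37, 4.15, 7.17 and 4.08 untreated and of 6.45, 8.43, 4.68, 9.07 and 5.28 with ADR. The untreated lymphomas spanned 6.29 and the ADR cells 4.39, with a change of -1.94 in lymphoma_7890 and higher values in the other 4. Its change was 0.60 ± 1.51 (SD, n = 5; adjusted p = 0.725 in limma; 0.0127 between lymphomas), and without lymphoma_5783 and lymphoma_1032 it was -0.07. Lgals3bp, a secreted galectin-binding glycoprotein, had signals of 8.60, 9.78, 7.49, 8.89 and 6.93 untreated and of 9.71, 9.56, 8.85, 10.02 and 7.51 with ADR. It was higher in every lymphoma but lymphoma_7890, which had the highest untreated value. Its change of 0.79 ± 0.63 had the smallest unadjusted p of the set (0.0101), a 95% interval from 0.25 to 1.33 and an adjusted p of 0.565 in limma, with 0.0118 between lymphomas. Xaf1, a pro-apoptotic factor, changed by -0.31 ± 0.58, Ifi27l2a by -0.29 ± 0.58 and Ifi35 by 0.36 ± 0.51. Other probe sets of Parp14 (-0.16), Xaf1 (0.02) and Herc6 (-0.17 and -0.19, but 0.12 in another) had mean changes of the opposite sign to the ones used.

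Genes upstream of the set did not pass for ADR either. Of 21 interferon genes listed, 10 had a probe set and 3 passed the filter; Ifnb1, the interferon beta gene, had signals from 3.50 to 4.22 over the 10 arrays, below the median of the table on all of them, as did Ifng. The receptor genes Ifnar1 and Ifnar2 had mean signals of 7.67 and 8.37 untreated and of 7.63 and 8.19 with ADR. Of 14 tested receptor and JAK-STAT genes, 7 were higher on average, 0 passed for ADR and 8 differed between lymphomas, beside 26.9% of all genes. The smallest p was that of Pias1, an inhibitor of JAK-STAT signalling, with -0.44 ± 0.35 (SD, n = 5). Irf1 changed by less than 0.01 on average, and of 8 tested genes in its list (6 interferon regulatory factors, Irf1 included, and the corepressors Irf2bp1 and Irf2bp2), 6 were higher, 0 passed and 1, Irf4, differed between lymphomas, with the smallest p in Irf3 at 0.22 ± 0.15. Isg15 is not analysed here.

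Of 20 tested genes of nucleic acid sensing, 14 were higher on average, 0 passed for ADR and 8 differed between lymphomas, beside 26.9% of all genes. Cgas, the sensor of cytosolic DNA that makes the messenger cGAMP, had signals of 5.62, 7.40, 6.06, 4.62 and 5.70 untreated and of 4.97, 6.51, 5.45, 4.32 and 5.39 with ADR. It was lower in all 5 lymphomas, by -0.55 ± 0.25 (SD, n = 5), and did not pass (adjusted p = 0.565 in limma). Its highest lymphoma was lymphoma_7890 and its lowest lymphoma_1032, whereas both were high for the interferon-stimulated genes.

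A further 60 interferon-stimulated genes outside the set were tested. Of these, 39 were higher on average with a median change of 0.13, 0 passed for ADR, and 37 of 60 (61.7%) differed between lymphomas, beside 26.9% of all genes. Untreated, 34 of the 60 were highest in lymphoma_1032 and 17 in lymphoma_7890, beside 28.5% and 18.0% of all genes. In lymphoma_7890, 38 of the 60 were lower with ADR, with a median change of -0.11, beside 51.5% of all genes and -0.01. In lymphoma_1032, 25 of the 60 were lower, with a median change of 0.04, beside 65.6% and -0.17. In lymphoma_5783, 17 were lower, with a median of 0.32, beside 46.3% and 0.04. The medians in lymphoma_9250 and lymphoma_4936 were 0.15 and 0.10, beside -0.02 and 0.06. The smallest p was that of Cd274, which encodes PD-L1; it had signals of 8.32, 8.80, 7.99, 8.63 and 7.17 untreated and of 8.96, 9.30, 9.16, 9.33 and 7.58 with ADR, higher in all 5 lymphomas.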

How the data were processed

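Arrays of 5 untreated and 5 ADR samples were used. The deposited table holds log2 signals, 1 per probe set and array, and the submitters' processing notes name RMA and Partek as the tools the authors used, without a version or role, and the log base was read from the range of the values. Of 45101 probe sets, 34945 had 1 gene symbol in the platform annotation (18193 genes). Genes above the table median (4.43) on at least 5 of 10 arrays were tested. Limma 3.58.1 in R 4.3.3 (lmFit, eBayes) was fitted across all 11472 genes with the lymphoma as a block, for ADR minus untreated and, as an F-test, for lymphomas; p-values are two-sided, Benjamini-Hochberg adjusted, with a threshold of 0.05. The pairing comes from the lymphoma number in the labels; across genes, the 2 arrays of each lymphoma deviated together (r from 0.51 to 0.79). The code of the fit was run on simulated data in which only a small share of genes differed between lymphomas. That run checks the code and does not say how small a change these arrays could detect. Python 3.11.15, pandas 2.3.3 and matplotlib 3.10.9 handled tables and plots. Members and lists were chosen with earlier results of these data known. All 37 members are named; values on every array are given for the 4 regulators, for the smallest p for ADR and the widest range of lymphoma means in each role group, and for Cgas and Cd274, the smallest p of their lists. Bst2 was added to these after its values were seen. The number of arrays limits the precision.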

Additional observations from a re-analysis of the deposited data

Results flagged for a closer look

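In 111 groups of 5 values (untreated, ADR and change of each of 37 genes), 2 had a sample far from the others by Dixon's gap test, where chance alone flags about 1 in 20 groups. Oasl1 had an untreated signal of 8.09 in lymphoma_7890, against 5.34 to 6.11 in the other lymphomas. Bst2 had an ADR signal of 10.25 in lymphoma_1032, against 9.13 to 9.30 in the others. The cause of either value was not tested.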

How the results depend on the processing

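In the 14 alternatives no member passed for ADR, and 0 genes of the whole table did; the smallest adjusted p of a member was 0.250. The fit with no replicate block gave 0 members called and the same median change of 0.02; the block changed no other call. The median change of the members lay between -0.21 (without both lymphoma_5783 and lymphoma_1032) and 0.26 (without lymphoma_7890). The count of members that differed between lymphomas was 23 of 37; it was 8, with 758 of all genes, without lymphoma_5783 and lymphoma_1032, and between 11 and 23, with 1179 to 2796 genes, when 1 lymphoma was left out, where fewer arrays entered the fit. The sign of the average change held in all alternatives for 15 members and turned in at least 1 for 22, none of them called. Leaving out 1 lymphoma gave -0.26 to 0.27 for Cmpk2, -0.19 to 0.0591 for Eif2ak2, -0.0588 to 0.33 for Herc6, -0.21 to 0.32 for Ifih1, -0.31 to 0.54 for Ifit1, -0.56 to 0.44 for Ifit2, -0.25 to 0.13 for Irf7, -0.0379 to 0.30 for Irf9, -0.10 to 0.67 for Mx1, -0.41 to 0.28 for Oas1a, -0.21 to 0.18 for Oas2, -0.25 to 0.0485 for Oas3, -0.47 to 0.0909 for Oasl1, -0.26 to 0.55 for Oasl2, -0.20 to 0.38 for Parp12, -0.0503 to 0.19 for Parp9, -0.50 to 0.34 for Rsad2, -0.41 to 0.0208 for Samd9l and -0.065 to 1.05 for Usp18. Without lymphoma_5783 and lymphoma_1032 the values were -0.0674 for Irf9, -0.57 for Usp18, -0.36 for Ifih1, -0.0095 for Zbp1, -0.47 for Oasl2, -0.35 for Mx1, -0.66 for Parp12, -0.0755 for Parp14, -0.0704 for Herc6 and -0.0714 for Rtp4. With array weights they were -0.26 for Ifih1, -0.30 for Oasl2, -0.14 for Mx1, -0.00065 for Parp9 and -0.21 for Parp12. Centring each array gave 0.0152 for Eif2ak2, 0.012 for Oas1a, 0.0416 for Oas2, 0.0776 for Ifit1, 0.0282 for Ifit2 and 0.0222 for Cmpk2, quantile normalization gave 0.0751 for Ifit1 and 0.001 for Cmpk2, and the mean of all probe sets gave -0.0283 for Herc6. The causes were not tested.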
